A study of Mus musculus with 6 samples.

Results

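Asns and 9 genes of the integrated stress response (Atf4, Atf5, Ddit3, Trib3, Chac1, Sesn2, Eif2ak3, Eif2ak4 and Ppp1r15a) were followed in mouse 2-cell embryos, 10 of the 48967 genes to which exonic counts could be assigned. The genes were taken by symbol. Asns was selected on its counts in these same libraries, where it was absent from 1 group, so its values are given as a description and carry no test. All 10 genes were among the 16020 that passed the filter on low counts, and Asns passed it through the control group alone.

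RNA was sequenced from 3 control and 3 delipidated libraries, each a pool of 3 wild-type (wt) embryos of the F1 (C57Bl/10 X CBA/H) strain, to ask how embryos respond at the RNA level when their lipid droplets are taken away. All zygotes were cultured in KSOM without fatty acids from 0.5 to 2.0 dpc and sampled as 2-cell embryos on day 2. For delipidation, zygotes were centrifuged in cytochalasin B, centrifuged again in hyperosmotic medium, opened at the zona pellucida with a laser, and their displaced droplets were aspirated. The labels do not state whether control zygotes were centrifuged, exposed to cytochalasin B or opened, so loss of lipid and this handling cannot be told apart. The embryos of each group were divided at random into tubes, so the p-values measure the spread between tubes and not between separate experiments.

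The control libraries held 12164963, 16165958 and 12980787 counts in genes, and the delipidated libraries held 20059460, 16332103 and 14683741. At least 1 count was found for 22855, 22437 and 20582 genes of the controls but for 17091, 19408 and 20158 genes after delipidation. Every delipidated library therefore detected fewer genes than every control library, although delipidated replicate 1 had the most counts of all 6.

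The integrated stress response begins with kinases that phosphorylate the translation factor eIF2alpha, among them PERK (Eif2ak3), which responds to unfolded proteins in the endoplasmic reticulum, and GCN2 (Eif2ak4), which senses uncharged tRNA when amino acids run short. Phosphorylated eIF2alpha slows protein synthesis in general but favours translation of the mRNA of ATF4, a transcription factor that turns on genes for amino acid synthesis, transport and tRNA charging, together with Ddit3, Trib3, Chac1 and Sesn2. Because ATF4 is controlled largely at translation, and because much of the RNA of a 2-cell embryo was made by the oocyte, mRNA levels of these genes do not report the activity of the pathway directly.

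Apart from Asns, the libraries of control and delipidated embryos overlapped for every member, and Chac1 was too variable for a direction. Of these 9 genes, 0 were called by edgeR's quasi-likelihood test at a Benjamini-Hochberg adjusted p under 0.05 and a log2 fold change beyond 1, in a comparison that called 0.00% of all genes tested. An unadjusted p under 0.05 was found for 0 of the 9, against 1.15% of all genes tested that were higher and 1.74% that were lower in delipidated embryos. In 0 of the 9 were the groups free of overlap, whereas every delipidated library lay above every control library for 3.81% of all genes and below for 5.05%. Their log2 fold changes, of which 2 were positive and 7 negative, had a median of -0.07, and 8 of the 9 were smaller than 0.3 in either direction. DESeq2's Wald test, which called 9 genes higher and 40 lower over the whole table, called 0 of these 9, and limma-voom called 0 genes in all. With 3 libraries against 3, an exact two-sided permutation test of a single gene cannot give a p under 0.1.

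**Figure D1:**
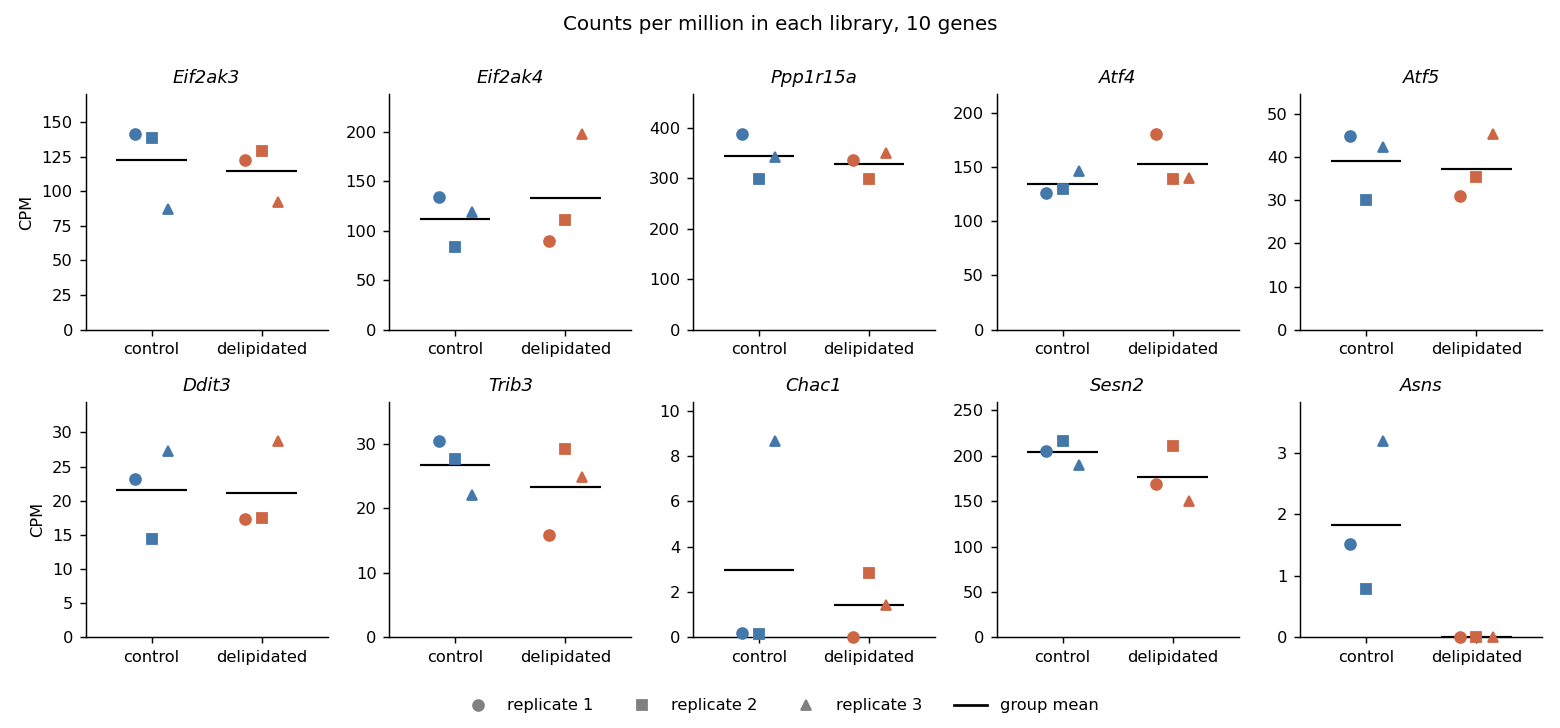
Levels (CPM, counts scaled to a common library total) of the 10 genes in every library, on a linear axis that starts at 0, with 1 point per library and a line at the group mean. The groups overlap for the 9 genes other than Asns, and Asns is at 0 in all 3 delipidated libraries.

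Levels are given in CPM, for which each library was scaled by its total over the tested genes and by a TMM factor. Between genes they are compared as CPM per kilobase of exonic sequence, averaged over the 6 libraries. A read that crosses several exonic parts is counted in each, so genes divided into many short parts may stand too high. On that scale Ppp1r15a was the most abundant member at 114.5, with libraries from 101.7 to 132, and Atf4 followed at 83.3, with libraries from 73.0 to 104.9, so that these ranges just met. Sesn2 stood at 54.7 and its libraries, from 43.2 to 62.2, all lay below those of Atf4. Eif2ak3 at 19.7, with libraries from 14.5 to 23.5, and Eif2ak4 at 16.4, with libraries from 11.2 to 26.6, could not be ordered. Atf5 has no sure place in this order, since it stood at 19.2 over all its parts but at 1.80 over the parts that no other gene overlaps. Ddit3 at 12.5 and Trib3 at 11.8 CPM per kilobase overlapped in the same way, with the highest library of Ddit3 at 16.8 and the lowest of Trib3 at 7.48, and Ddit3 reached into the range of Eif2ak3. Chac1 had a mean of 1.34 and Asns of 0.335 CPM per kilobase, and both had libraries at 0.

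Of the kinases, Eif2ak3 (chr6:70844515-70905245, forward strand, GRCm38) had 141.8, 138 and 87.5 CPM in control and 122.6, 129 and 92.6 CPM in delipidated embryos. Replicate 3 was the lowest in both groups and the groups overlapped, with a log2 fold change of -0.09 (SE 0.26). About 14.8% of its counts lay on exonic parts that another gene shares on the opposite strand. Eif2ak4 (chr2:118388618-118475234, forward strand) had 133.5, 83.2 and 118 CPM in control and 89.1, 111 and 198 CPM in delipidated embryos. Delipidated replicate 3 alone stood above the control range. The log2 fold change was 0.25 (SE 0.32) and turned to -0.16 without that library. The remaining kinases, HRI (Eif2ak1, activated by haem deficiency) and PKR (Eif2ak2, activated by double-stranded RNA), were far apart in level. Eif2ak1 had 78.9, 96.0 and 95.3 CPM in control and 57.5, 77.8 and 79.8 CPM in delipidated embryos, with a log2 fold change of -0.33 (SE 0.25), and 30.2% of its counts lay on parts that overlap the opposite strand. Eif2ak2 had 20, 0 and 24 counts in control and 0, 15 and 0 counts in delipidated libraries, with a log2 fold change of -1.90 (SE 2.13). Over the 4 kinases, 1 log2 fold change was positive and 3 were negative, with a median of -0.21 and 0 called. With 1 library left out this median ran from -0.29 without delipidated replicate 2 to -0.14 without control replicate 2.

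Genes that act on these kinases were also measured. Of 7 activators and inhibitors, 6 had a positive and 1 a negative log2 fold change, with a median of 0.36 and 0 called, beside a median of -0.00073 over all genes tested, of which 50.0% were positive. The median of the list was 0.070 without delipidated replicate 1 and 0.55 without control replicate 3. Impact, an inhibitor of GCN2 activation, had 3.38, 2.18 and 0 CPM in control and 9.92, 1.35 and 5.01 CPM in delipidated embryos. Nck1, an adaptor that limits PERK activity, had 9.53, 13.7 and 10.6 CPM in control and 23.8, 10.2 and 17.1 CPM in delipidated embryos. Both overlapped between the groups. Abcf3, the mouse counterpart of the yeast Gcn20 family, was the most abundant of the list per length, at 16.8 CPM per kilobase, and its log2 fold change was -0.34 (SE 0.34).

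The substrate of the kinases, eIF2, and its exchange factor eIF2B were measured through their subunits, whose levels per length ran from 3.42 CPM per kilobase for Eif2b3 to 90.8 for Eif2b4. Of 10 genes for subunits of eIF2 and eIF2B and for related initiation factors, 4 had a positive and 6 a negative log2 fold change, with a median of -0.04 and 0 called, and the median was 0.04 without control replicate 3 and -0.14 without control replicate 1. Eif2s1, which encodes eIF2alpha itself, had 130.2, 140.6 and 143 CPM in control and 222, 165.6 and 119 CPM in delipidated embryos, so that the delipidated libraries lay on both sides of the control range. Eif2s2, which encodes eIF2beta, had 405.7, 425 and 441 CPM in control and 573, 458.5 and 511 CPM in delipidated embryos. It was higher in 3 of 3 delipidated libraries, with a log2 fold change of 0.28 (SE 0.17) and an adjusted p of 1.00 from edgeR's quasi-likelihood test. Eif2b4, a subunit of eIF2B, had a log2 fold change of -0.25 (SE 0.24).

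The response is reset by GADD34 (Ppp1r15a), which brings protein phosphatase 1 to eIF2alpha. Ppp1r15a (chr7:45522916-45526268, reverse strand) had 389, 299 and 343 CPM in control and 337, 298.6 and 350.3 CPM in delipidated embryos. The delipidated libraries fell almost wholly inside the control range, with a log2 fold change of -0.06 (SE 0.18), the smallest SE among the members. About 8.89% of its counts lay on parts that overlap the opposite strand. Over the 5 genes of the phosphatase list, 1 log2 fold change was positive and 4 were negative, with a median of -0.09 and 0 called, and the median was -0.19 without control replicate 1 and -0.056 without delipidated replicate 3. The catalytic subunits Ppp1cc and Ppp1ca had log2 fold changes of -0.15 (SE 0.19) and -0.17 (SE 0.29).

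Among the transcription factors, Atf4 (chr15:80255184-80257541, forward strand) had 125.8, 129.7 and 146.6 CPM in control and 181, 139 and 139.5 CPM in delipidated embryos. Delipidated replicate 1 was above all other libraries and the other delipidated libraries lay inside the control range. The log2 fold change was 0.19 (SE 0.22), and its unadjusted p of 0.394 became an adjusted p of 1.00 in edgeR's quasi-likelihood test. Atf5, a relative of Atf4 that is likewise favoured in translation when eIF2alpha is phosphorylated, lies at chr7:44812256-44816658 on the reverse strand. It had 45.0, 30.1 and 42.4 CPM in control and 31.1, 35.5 and 45.5 CPM in delipidated embryos, with a log2 fold change of -0.07 (SE 0.33). These totals cannot be assigned to Atf5 with certainty. Of its counts, 91.4% lay on parts that overlap exons shared by Nup62 and Il4i1 on the opposite strand, and those opposite parts carried similar counts, 453, 392 and 411 in control and 498, 442 and 511 in delipidated libraries for the stretch chr7:44816396-44816459. The parts of Atf5 that overlap no other gene held 37, 23 and 44 counts in control and 64, 56 and 73 counts in delipidated libraries. On these parts the log2 fold change was 0.58 (SE 0.88), opposite in direction to that of the whole gene.

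Ddit3 (chr10:127290774-127296288, forward strand) encodes CHOP, which is known for promoting cell death after lasting stress. It had 23.1, 14.4 and 27.2 CPM in control and 17.3, 17.4 and 28.7 CPM in delipidated embryos. Replicate 3 was the highest in both groups, and the log2 fold change was -0.03 (SE 0.41). Of the 10 listed stress response factors 8 were tested, 2 with a positive and 6 with a negative log2 fold change, a median of -0.10 and 0 called. That median was 0.0091 without control replicate 1 and -0.26 without delipidated replicate 3. Nupr1, a stress-induced chromatin protein, had 15.1, 5.62 and 7.22 CPM in control and 3.36, 4.98 and 3.88 CPM in delipidated embryos. It was lower in 3 of 3 delipidated libraries, with a log2 fold change of -1.19 (SE 0.63) and an adjusted p of 1.00 from edgeR's quasi-likelihood test. Atf2, a bZIP factor activated by stress kinases, had a log2 fold change of -0.22 (SE 0.18). Of its counts, 100% lay on parts that carried joined identifiers of overlapping genes and were assigned to it by annotation. Cebpb and Jun had too few counts to be tested.

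The signalling targets of ATF4 among the members differed widely in level. Trib3 (chr2:152337422-152344032, reverse strand) encodes a pseudokinase that restrains ATF4 and AKT. It had 30.5, 27.7 and 22.1 CPM in control and 15.9, 29.3 and 24.8 CPM in delipidated embryos, with a log2 fold change of -0.20 (SE 0.38). Delipidated replicate 1 was the lowest library and the others lay inside the control range. Sesn2 (chr4:132492032-132510501, reverse strand) encodes a leucine sensor that restrains mTORC1. It had 205, 216 and 190 CPM in control and 168, 211 and 150.2 CPM in delipidated embryos. Delipidated replicates 1 and 3 were below the control range, replicate 2 was inside it, and the log2 fold change of -0.21 (SE 0.21) had an unadjusted p of 0.340, the smallest of the 9 genes, in edgeR's quasi-likelihood test.

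Chac1 (chr2:119351229-119354381, forward strand) encodes an enzyme that degrades glutathione. Control embryos gave 2, 2 and 114 counts and delipidated embryos 0, 46 and 20. Control replicate 3 held nearly all control counts, with 36, 36 and 42 on the 3 exonic parts of the gene. Since a read that crosses several parts is counted in each, the 114 counts of this library can be as few as 42 reads. The log2 fold change was -1.08 (SE 1.75) with that library and 3.21 (SE 2.43) without it, so no direction can be given. Of the 7 tested genes of the tribbles, sestrin and CHAC families, Trib3, Sesn2 and Chac1 included, 0 were called and the median was -0.35, and it was -0.15 without delipidated replicate 1 and -0.41 without delipidated replicate 3. The 4 that are not members, Trib1, Trib2, Sesn1 and Sesn3, had 1 positive and 3 negative log2 fold changes, with a median of -0.37. Sesn3 was the gene with the positive value, 0.41 (SE 0.42).

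Among the targets of ATF4 in signalling and stress, 12 of 15 listed genes were tested, 4 with a positive and 8 with a negative log2 fold change, a median of -0.15 and 0 called. The median turned to 0.17 without control replicate 3 and to 0.016 without delipidated replicate 3. Eif4ebp1 encodes 4E-BP1, which binds the cap-binding protein eIF4E and represses translation. It had 5.15, 3.02 and 3.04 CPM in control and 10.3, 9.58 and 10.8 CPM in delipidated embryos. All 3 delipidated libraries lay well above the control libraries and close to each other. Its group means were 3.74 ± 1.22 CPM (SD, n = 3) in control and 10.2 ± 0.613 CPM (SD, n = 3) in delipidated embryos. The log2 fold change of 1.45 (SE 0.58) had an unadjusted p of 0.0283 and an adjusted p of 1.00 in edgeR's quasi-likelihood test, and DESeq2's adjusted p was 0.385, the lowest of the alternatives. Of its exonic parts with counts, that of exon 2 had 2.36, 1.27 and 1.52 CPM in control and 2.77, 3.07 and 3.11 CPM in delipidated embryos, and the part of exon 3 at chr8:27275080-27275498 had 0.338, 0.605 and 1.14 CPM and 4.79, 3.01 and 4.10 CPM, both without overlap. The groups overlapped for the part of exon 1, with 2.36, 0.968 and 0.380 CPM and 2.77, 3.13 and 1.62 CPM, and for the rest of exon 3 at chr8:27275499-27276674, with 0.0844, 0.181 and 0 CPM and 0, 0.369 and 1.98 CPM. Eif4ebp1 was the only 1 of 84 tested list genes outside the 10 members with an unadjusted p under 0.05, against the 1.15% of all genes tested that were higher. Bbc3, which encodes the cell death protein PUMA, had 21, 95 and 12 counts in control and 5, 20 and 0 counts in delipidated libraries, with a log2 fold change of -2.50 (SE 1.54) and overlapping groups.

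The targets of ATF4 in amino acid synthesis, the group to which Asns belongs, had 6 positive and 7 negative log2 fold changes among 13 tested genes, with a median of -0.0042. Asns set at its bound gives the same median, since the bound too lies below it. Without Asns, left out after the values were seen, 6 were positive and 6 negative, the median was 0.030 and 0 were called. With 1 library left out as well it ran from -0.010 without control replicate 1 to 0.17 without delipidated replicate 2. Phgdh, the first enzyme of serine synthesis, had 6.75, 15.3 and 6.54 CPM in control and 27.8, 25.1 and 7.77 CPM in delipidated embryos. Delipidated replicates 1 and 2 were above the control range and replicate 3 was inside it, with a log2 fold change of 1.08 (SE 0.58). Cth, which makes cysteine from cystathionine, had a log2 fold change of 0.40 (SE 0.30). Mthfd2, a mitochondrial enzyme of folate metabolism, was the most abundant of the list per length at 55.9 CPM per kilobase, with a log2 fold change of 0.21 (SE 0.24).

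For amino acid transport, 8 of 9 listed genes were tested, 2 with a positive and 6 with a negative log2 fold change, a median of -0.36 and 0 called. With 1 library left out the median ran from -0.50 without control replicate 1 to -0.19 without control replicate 3, and it was -0.071 with only the most counted exonic part of each gene. Slc1a5, a carrier of glutamine and other neutral amino acids, had 51.6, 70.8 and 67.8 CPM in control and 40.5, 49.4 and 36.4 CPM in delipidated embryos. It was lower in 3 of 3 delipidated libraries, with a log2 fold change of -0.59 (SE 0.29) and an adjusted p of 1.00 from edgeR's quasi-likelihood test. Its relative Slc1a4 had 4.47, 7.62 and 4.41 CPM in control and 19.2, 13.1 and 4.09 CPM in delipidated embryos, with a log2 fold change of 1.14 (SE 0.64) and overlapping groups. Slc3a2, the heavy chain of several transporters, was the most abundant of the list per length at 37.7 CPM per kilobase.

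Among the aminoacyl-tRNA synthetases, with the tRNA exporter Xpot, 6 of 13 tested genes had a positive and 7 a negative log2 fold change, with a median of -0.02 and 0 called. The median was -0.19 without delipidated replicate 1 and positive, 0.043 to 0.072, without control replicate 2 or 3 or delipidated replicate 2 or 3. Gars, which charges glycine tRNA, had 52.2, 38.6 and 41.4 CPM in control and 63.0, 54.2 and 64.7 CPM in delipidated embryos. It was higher in 3 of 3 delipidated libraries with a log2 fold change of 0.46 (SE 0.28) and an adjusted p of 1.00 from edgeR's quasi-likelihood test. Sars, for serine, was named after its values were seen and was also higher in 3 of 3 delipidated libraries, with 40.2, 35.6 and 41.3 CPM in control and 49.4, 53.2 and 48.3 CPM in delipidated embryos. Eprs, for glutamate and proline, and Iars, for isoleucine and the most abundant per length at 74.6 CPM per kilobase, had overlapping groups and log2 fold changes of 0.36 (SE 0.24) and 0.19 (SE 0.19).

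Over all lists, 84 genes other than the members were tested, 34 with a positive and 50 with a negative log2 fold change, with a median of -0.09 and 0 called. Every delipidated library was above every control library for 4 of them (4.76%), Eif2s2, Eif4ebp1, Gars and Sars, and below for 4 (4.76%), Glul, Got2, Nupr1 and Slc1a5. Both shares are near the 3.81% and 5.05% of all genes tested. The list medians depended on how counts were summed: with only the most counted exonic part of each gene, they turned to 0.28 for the kinases, -0.27 for their activators and inhibitors, 0.24 for amino acid synthesis, 0.054 for the aminoacyl-tRNA synthetases with Xpot and 0.21 for the tribbles, sestrin and CHAC families, and that of amino acid transport moved to -0.071. Fewer genes could be tested this way, 3 of 4 kinases, 5 of 7 activators and inhibitors and 10 of 13 genes of amino acid synthesis, but all 13 synthetases with Xpot, all 7 of the families and all 8 of transport. Over the same genes, a comparison added after the values were seen, the summed parts gave medians of -0.09 for the kinases, 0.11 for their activators and inhibitors and 0.030 for amino acid synthesis, so part of the move for the kinases, for their activators and inhibitors and for amino acid synthesis came with the genes left out.

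**Figure D2:**
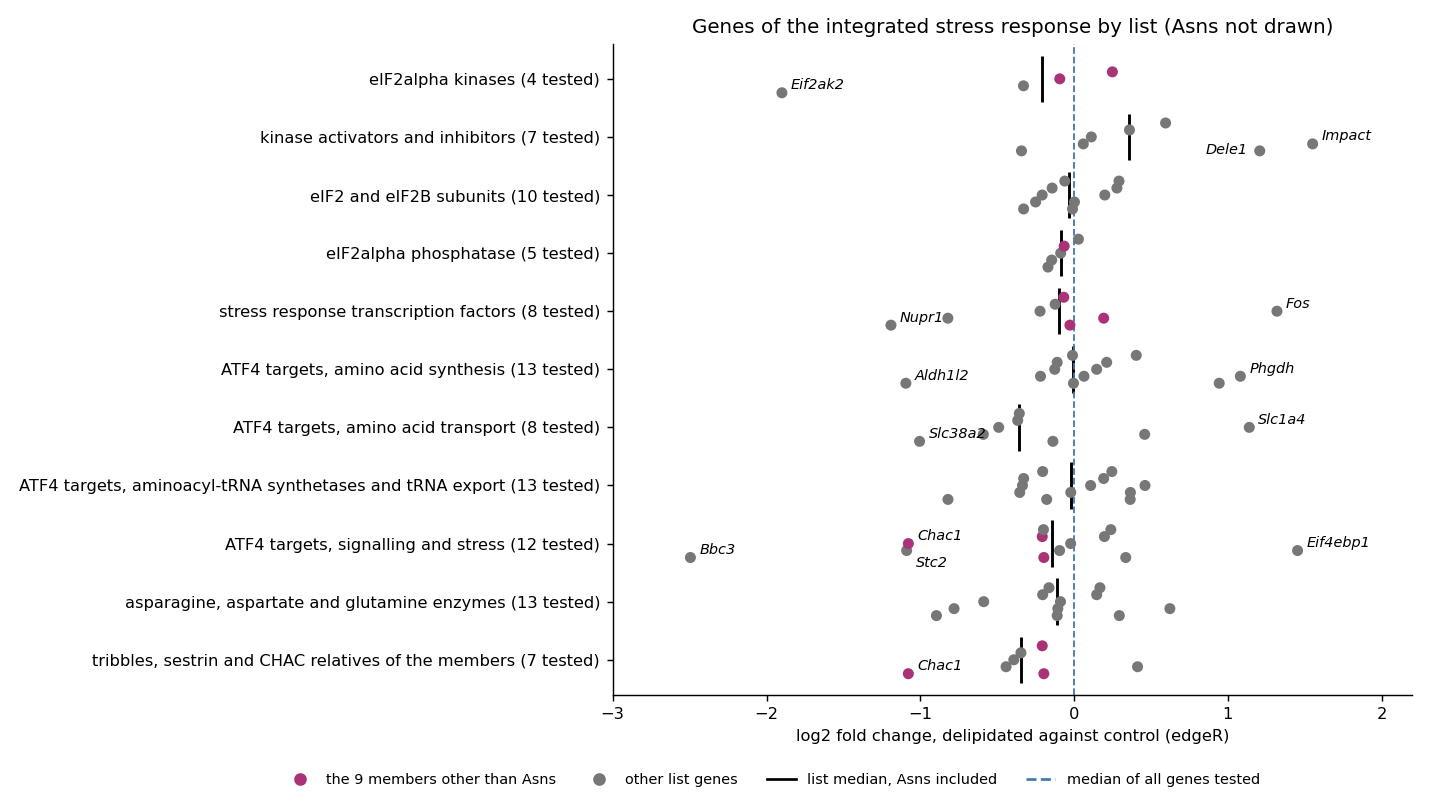
Log2 fold changes of delipidated against control embryos (edgeR) for the tested genes of each list, with 1 point per gene, black lines at the list medians and a dashed line at the median of all genes tested. Genes beyond 1 in either direction are named, Asns is not drawn because its fitted value depends on the prior count, and 0 of the genes drawn were called.

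Asns encodes asparagine synthetase, which makes asparagine from aspartate and glutamine and is a well known target of ATF4 and GCN2 when amino acids are short. The gene (ENSMUSG00000029752) lies at chr6:7675169-7693254 on the reverse strand and is covered by 26 exonic parts, none of which overlaps another gene. Control embryos gave 18, 13 and 42 counts, or 1.52, 0.786 and 3.19 CPM, and each of the 3 delipidated libraries gave 0. Its control mean was 1.83 ± 1.23 CPM (SD, n = 3). All control libraries thus held Asns at a low level that varied among them, and the delipidated libraries held no count on any part.

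The counts of Asns lay on few exons, and no exon was counted in all 3 control libraries. In control replicate 1 they lay on 4 parts in exons 3, 6 and 7 of transcript Asns-201, with at most 8 on a part. In control replicate 2 they lay on 2 parts in exons 8 and 9, with 4 and 9 counts. In control replicate 3 they lay on 6 parts in exons 3, 4 and 5, with exactly 7 on each. Since a read that crosses several parts is counted in each of them, the 42 counts of control replicate 3 can be as few as 7 reads. Of the 10 parts with a count, 2 were counted in more than 1 control library and 0 in all 3, and all 10 lie within the coding sequence.

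**Figure D3:**
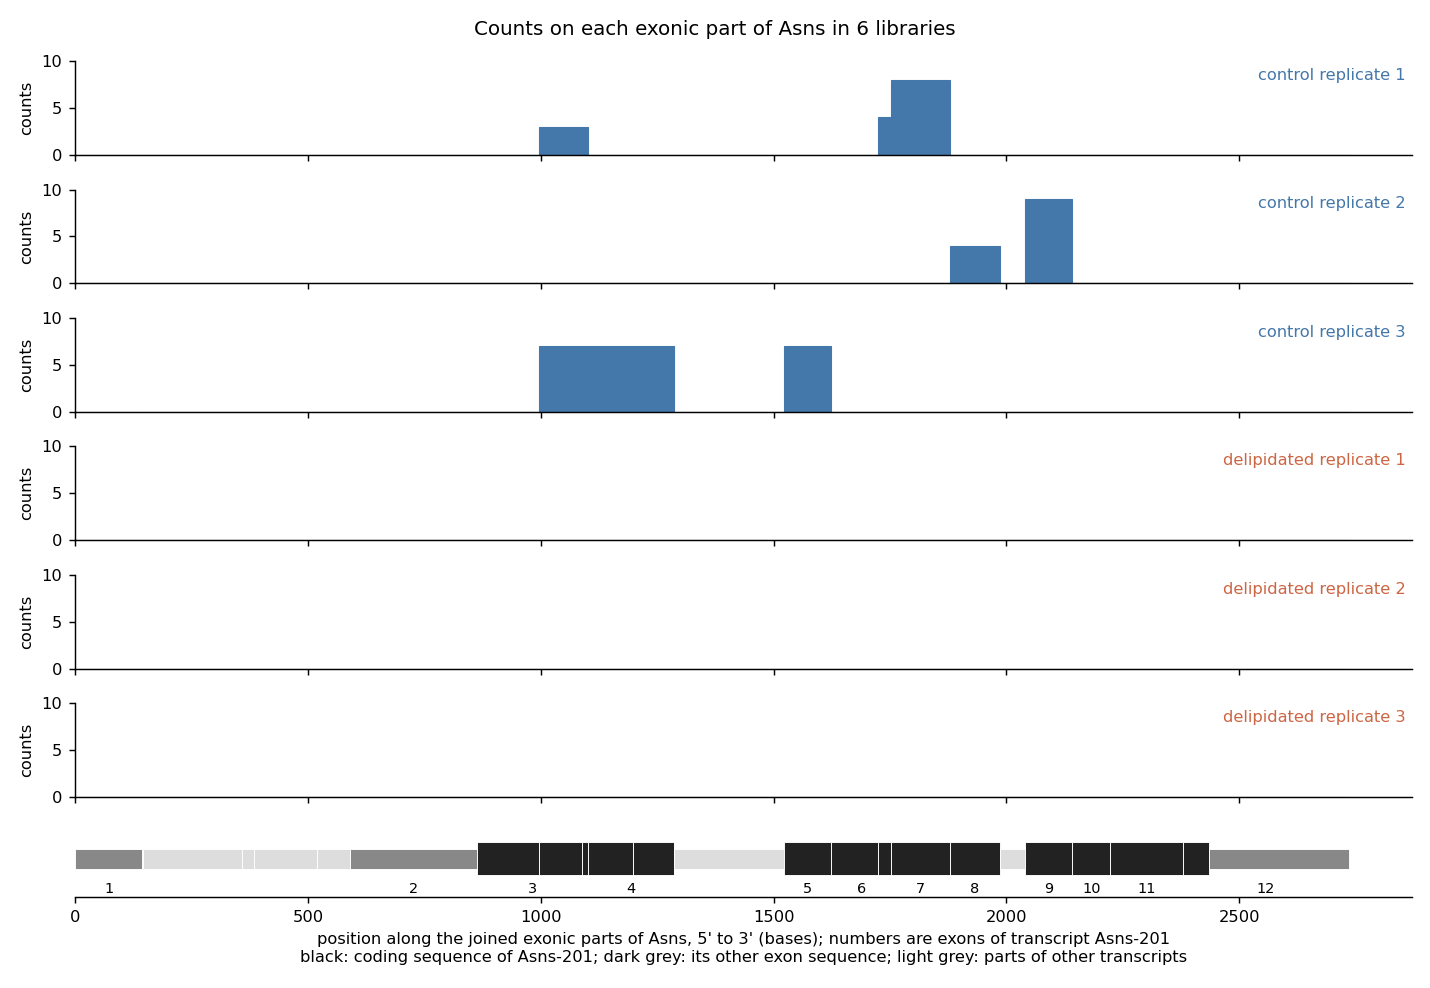
Counts on each of the 26 exonic parts of Asns in the 6 libraries, along the joined parts from 5′ to 3′ in bases, above a map of the exons of transcript Asns-201. Each control library has counts on 2 or 3 exons, at most 9 on a part, and the delipidated libraries have 0 on every part.

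The coding stretches that carried the highest count in each control library are shown because the detection of Asns rests on them. They are the exonic parts chr6:7680085-7680211 in exon 7 with 8 counts in control replicate 1, chr6:7677231-7677331 in exon 9 with 9 counts in control replicate 2, and chr6:7681934-7682035 in exon 5 with 7 counts in control replicate 3, read on the reverse strand of GRCm38 from the GENCODE transcript.
Asns exon 7: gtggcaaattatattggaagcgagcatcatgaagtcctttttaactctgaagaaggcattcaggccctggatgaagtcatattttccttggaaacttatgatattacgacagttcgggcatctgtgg
Asns exon 9: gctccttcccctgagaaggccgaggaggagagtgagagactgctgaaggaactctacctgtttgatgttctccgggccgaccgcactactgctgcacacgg
Asns exon 5: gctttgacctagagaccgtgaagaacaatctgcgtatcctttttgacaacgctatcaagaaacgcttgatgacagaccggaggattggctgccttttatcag

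Taking only the part with the most counts in each control library, so that no read enters more than once, gives 24 counts in the control group. Against a floor of 3 counts over the delipidated group, Asns was at least 9.76-fold lower in delipidated embryos. The bound was 5.86-fold without delipidated replicate 1, the deepest library, and 9.11-fold to 10.1-fold without any 1 control library. Reads made by PCR without molecular identifiers are not independent molecules, so this bound covers counting error alone. It covers that of the delipidated counts only, since the control counts enter as observed. Fewer cells with Asns RNA and less Asns RNA per cell cannot be told apart in pooled embryos.

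Asns was 1 of 28 genes with at least 10 counts in every control library and 0 in every delipidated library, 0.218% of the 12869 genes with at least 10 counts in every control library. The reverse pattern was found for 2 genes, 0.0162% of the 12372 with at least 10 counts in every delipidated library. These were Ren1 and 4930517L18Rik, named after their values were seen. The threshold of 10 applies to sums over parts, in which a read can be counted more than once. On a single part Asns had at most 8, 9 and 7 counts in the control libraries, so in reads it can fall under 10. By Pearson correlation of log2 CPM over the 6 libraries, given as a description, the tested genes most like Asns were Cgrrf1, Ddc, Synpo2, Zfp467 and Gm43760, with r from 0.996 to 1.00. They were not alone, since r was above 0.9 for 139 genes and above 0.95 for 51. Asns was selected for its absence in 1 group, so genes absent from that group score high with it. Cgrrf1 had 20, 14 and 41 control counts and Ddc had 30, 18 and 54, and all 5 genes were at 0 in every delipidated library.

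Markers of other cells were also followed. Fewer stromal markers were counted in every delipidated library than in every control library, while for leukocyte, cumulus and granulosa, and oviduct markers the numbers overlapped between the groups. Of 12 leukocyte markers, 7, 5 and 7 were counted in control and 1, 2 and 6 in delipidated libraries, with summed levels of 11.5, 11.3 and 9.35 CPM and of 0.346, 1.66 and 10.8 CPM. Of 11 stromal markers, 9, 8 and 9 were counted in control and 2, 4 and 6 in delipidated libraries, with summed levels of 41.9, 48.3 and 84.2 CPM and of 66.3, 51.8 and 23.6 CPM. Their most abundant genes were Csf1r and Fn1. Fn1 held most of the stromal sum after delipidation, with 14.4, 27.6 and 28.4 CPM in control and 64.3, 45.3 and 17.0 CPM in delipidated libraries. Without it, a sum added after the values were seen, the other stromal markers had 27.5, 20.7 and 55.9 CPM in control and 1.93, 6.45 and 6.57 CPM in delipidated libraries, so that every delipidated library was lower. Vim alone had 152, 145 and 300 counts in control and 0 in all delipidated libraries. Without Csf1r the leukocyte sums still overlapped, with 8.18, 8.04 and 6.01 CPM in control and 0, 0.307 and 6.50 CPM in delipidated libraries. Vim, Col1a1, Col3a1, Lum and Pdgfrb of the stromal list were at 0 in all delipidated libraries only. So were Cd14, Adgre1, Lyz2, Tyrobp and S100a9 of the leukocyte list. Of these, Lum and S100a9 each had 2 counts in control replicate 3 alone, and Tyrobp had 5 in control replicate 1 alone. In each list 1 gene was at 0 in all control libraries only. These were Dcn, with 27 counts in delipidated replicate 3, and Fcer1g, with 15 in that library.

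The study's methods remove cumulus cells with hyaluronidase and washes. Of 16 cumulus and granulosa markers, 9, 7 and 11 were counted in control and 4, 7 and 6 in delipidated libraries, with summed levels of 191, 240.1 and 327 CPM and of 247, 210.4 and 159 CPM. Nr5a2, which embryos express themselves, was the most abundant of them. Foxl2 and Ptx3 were at 0 in every library, as was S100a8 of the leukocyte list. Fshr, Inhba, Cyp11a1 and Fst were at 0 in all delipidated libraries only. Of these, Fshr had 2 counts in control replicate 1 alone and Fst had 4 in control replicate 3 alone. Lhcgr was at 0 in all control libraries only, with 3 counts in delipidated replicate 2. Hsd3b1 and Cyp11a1, named after their values were seen, had 607 and 653 counts in control replicate 3 and at most 5 elsewhere. Of 9 oviduct markers, 7, 8 and 7 were counted in control and 6, 8 and 8 in delipidated libraries, with Epcam the most abundant and summed levels of 225, 394 and 265.5 CPM and of 253, 305 and 192 CPM. Without their most abundant gene, again added after the values were seen, the cumulus and granulosa sums overlapped, with 8.61, 10.2 and 113 CPM in control and 2.12, 10.4 and 12.4 CPM in delipidated libraries. The oviduct sums did not, with 142.9, 173 and 154 CPM in control and 97.3, 111 and 84.5 CPM in delipidated libraries. Cdh1 held most of these sums, with 125, 140 and 133 CPM and 70.3, 88.7 and 73.8 CPM. It was the only oviduct marker whose groups did not overlap. Ovgp1 and Foxj1 were also named after their values were seen. Ovgp1 had 2, 81 and 17 counts in control and 189, 21 and 10 counts in delipidated libraries. Foxj1 was at 0 in all control libraries only, with 9 counts in delipidated replicate 2 and 2 in delipidated replicate 3. Whether RNA of other cells, or the smaller number of genes detected, had a part in the absence of Asns was not tested.

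Markers of the labelled stage were present. All 12 of the 2-cell markers found in the files were counted in every library except for Duxf3 in delipidated replicate 1, and their summed levels were 800.8, 356 and 655 CPM in control and 559, 664 and 912 CPM in delipidated libraries, with Sp110 the most abundant. Maternal oocyte markers, led by Dppa3, summed to 2869, 2042 and 2721 CPM in control and 2457, 2419 and 3331 CPM in delipidated libraries. Both lists overlapped between the groups.

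The other enzymes that make or use asparagine, aspartate and glutamine were present in both groups. Of 13 tested genes including Asns, 4 had a positive and 9 a negative log2 fold change, with a median of -0.11, to which the bound of Asns makes no difference since it too lies below it. Without Asns, left out after the values were seen, 4 were positive and 8 negative, the median was -0.11 and 0 were called. With 1 library left out as well it ran from -0.28 without control replicate 1 to -0.048 without delipidated replicate 3. Glul, which makes glutamine and was the most abundant of the list at 88.0 CPM per kilobase, had 284, 328 and 289.8 CPM in control and 270.8, 270.0 and 264 CPM in delipidated embryos. Of the counts of Glul, 100% lay on parts that carried joined identifiers of overlapping genes and were assigned to it by annotation. About 9.65% lay on parts that overlap the opposite strand. Got2, the mitochondrial aspartate aminotransferase, had 16.5, 29.6 and 16.7 CPM in control and 13.7, 13.2 and 9.67 CPM in delipidated embryos, and 35.9% of its counts lay on parts that overlap the opposite strand. Glul and Got2 were lower in 3 of 3 delipidated libraries, with log2 fold changes of -0.16 (SE 0.18) and -0.78 (SE 0.44) and adjusted p-values of 1.00 from edgeR's quasi-likelihood test.

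ATF4 acts through C/EBP-ATF response elements, whose core can be written TGATGNAA, or TTNCATCA on the other strand. All 10 members were matched to 12 RefSeq promoters of GRCm38.p6, each running from 250 bases before to 50 bases after a start site. These letters were held on either strand by 3 members, Asns, Chac1 and Trib3. Ddit3 and Sesn2, also named above as targets of ATF4, did not hold them. Over all 32851 such promoters, 3.97% held them. That is a share of promoters and not of genes, so it is not in the same unit as the count of members. Windows of 30 bases around each match are shown because these members are known ATF4 targets, with the match in capitals and each read along the strand of its gene. They lie at chr6:7693214-7693243 on the reverse strand for Asns, chr2:119351038-119351067 on the forward strand for Chac1, and chr2:152344028-152344057 on the reverse strand for Trib3.
Asns: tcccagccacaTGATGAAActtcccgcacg
Chac1: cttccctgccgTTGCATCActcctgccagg
Trib3: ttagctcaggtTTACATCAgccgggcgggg
The match begins 23 bases before the RefSeq start of Asns, 193 bases before that of Chac1 and 14 bases after that of Trib3, and the window of Asns falls within the first exonic part of the gene in the deposited counts. The members that held the motif had unlike values, 0 counts in all delipidated libraries for Asns, counts led by control replicate 3 for Chac1, and overlapping groups of 15.9 to 30.5 CPM for Trib3. A match is a description of letters and does not show that a factor was bound.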

How the data were processed

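The authors deposited raw counts for exonic parts, the separate pieces into which a gene's exons are divided, made per their processing notes with bcl2fastq 2.20, Trimmomatic 0.36, STAR 2.5.2b and featureCounts on mm10. A read can be counted in every part it covers, so sums exceed the number of reads. Of 425461 parts per library, 33309 carried joined identifiers of overlapping genes; 27968 of these overlapped exons of only 1 of the joined genes in GENCODE M21 and were assigned to it, and the rest, with 2.49% to 2.57% of counts, were left out. Parts were summed per gene. Symbols were found for 49384 of 49644 identifiers.

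Delipidated and control libraries were tested in edgeR 4.0.16 (R 4.3.3; TMM, quasi-likelihood test, no covariates) on genes kept by filterByExpr at a count of 10 and a total of 15, with Benjamini-Hochberg adjustment over all genes tested; the procedure was tested on simulated counts. SE is the absolute log2 fold change divided by the square root of F. DESeq2 1.42.0 and limma 3.58.1 were alternatives. Tables were made with Python 3.11.15. The members and lists were chosen with earlier results of these data known. From each list, the called genes or otherwise the 2 with the smallest unadjusted p and the most abundant per length are named, with the 5 genes most like Asns (prior count 2) and, of each marker list, the most abundant gene and those at 0 in every library. A gene that this rule names is not reported here. The kit marks strand, but at Atf5 parts on both strands carried similar counts, so overlapping genes are uncertain.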

Additional observations from a re-analysis of the deposited data

How the results depend on the processing

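Over all genes tested, the counts of 0 higher and 0 lower changed in 2 alternatives: DESeq2 without a filter called 9 higher and 40 lower, and edgeR without a filter called 5 higher and 25 lower, in both with 0 of the 9 members other than Asns. They stayed at 0 without the fold threshold, with each library left out in turn (383 to 993 genes with an unadjusted p under 0.05) and in the other alternatives. The replicate numbers did not pair the samples, with correlations of same-numbered deviations of -0.0836, 0.0698 and 0.0428, and the replicate block called 0 higher and 0 lower. Over all alternatives the adjusted p-values of the 9 members lay between 0.791 and 1.00. Of 143 values of their log2 fold changes under alternatives, 126 had the direction reported and 17 the opposite one. With the most counted part in place of the sum, Ddit3 was 0.17, Trib3 0.21 and Eif2ak3 0.28, and without parts that overlap the opposite strand Atf5 was 0.58. With 1 library left out, log2 fold changes ranged from 0.056 (without delipidated replicate 1) to 0.26 for Atf4, from -0.36 (without delipidated replicate 2) to -0.11 (without delipidated replicate 3) for Sesn2, from -0.24 to 0.057 for Atf5, from -0.31 to 0.17 for Ddit3, from -0.39 to 0.018 for Trib3, from -2.08 to 3.21 for Chac1, from -0.29 to 0.036 for Eif2ak3, from -0.16 to 0.47 for Eif2ak4 and from -0.15 to 0.045 for Ppp1r15a. The direction turned without control replicate 1 (Atf5 0.057, Ddit3 0.041, Eif2ak3 0.032, Ppp1r15a 0.045), control replicate 2 (Eif2ak3 0.0028), control replicate 3 (Ddit3 0.17, Chac1 3.21), delipidated replicate 1 (Atf5 0.050, Ddit3 0.099, Trib3 0.018), delipidated replicate 2 (Ddit3 0.094) and delipidated replicate 3 (Eif2ak3 0.036, Eif2ak4 -0.16). Apart from the overlap of Atf5, the cause was not tested. Asns had no value with the most counted part or a mean count of at least 50, which it did not reach, and Chac1 had none in the latter. Divided by the length of its counted parts alone, the control level of Asns was 2.43 CPM per kilobase in place of 0.670. Of the members, Asns and Chac1 had fewer counts than the others, which limits their values.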
